A study of Mus musculus with 28 samples.

Results

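Untreated lymphomas from mice with the Emu-myc transgene were divided into those with a high and those with a low level of Cd5, and the 2 groups were compared across all genes. The groups were chosen by the measured Cd5 level itself. On the 14 untreated arrays, of 28 arrays in all, a lymphoma with a log2 Cd5 level of 9 or more was called Cd5-high and the others Cd5-low, which gave 5 Cd5-high and 9 Cd5-low lymphomas. The labels do not name these groups. Every array held lymphoma cells from lymph nodes of C57BL/6 mice that carry the Emu-myc transgene, which drives Myc throughout the B-cell lineage. All cells, in both groups, were also infected with an MSCVpuro retrovirus carrying Bcl2, an inhibitor of apoptosis, selected with puromycin, and grown on gamma-irradiated NIH 3T3 mouse fibroblasts as a feeder layer. Each lymphoma had 1 untreated culture and 1 culture given 0.05 µg/ml Adriamycin (ADR, doxorubicin) for 5 days, with 1 array per culture. Each lymphoma is a separate tumour, and neither age nor sex of the mice is given. Values are log2 expression levels, and a difference is the mean of the Cd5-high minus the mean of the Cd5-low lymphomas, with its standard error (SE) from the fit.

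Cd5 is a surface glycoprotein of T cells and of the B-1 subset of B cells, in which it dampens signalling from the antigen receptor. Its level on B cells also goes up when the antigen receptor is engaged. Jchain encodes the joining chain that links the subunits of polymeric IgM and IgA, and it is made by antibody-secreting cells and their activated precursors. Emu-myc tumours are known to arise from several stages of B-cell development, from pre-B cells to mature B cells.

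The bases before the start sites of the gene that made the groups and of the gene with the largest negative difference are shown here so that both can be placed on the genome. They are the 250 bases upstream of the RefSeq start in GRCm38.p6, 5′ to 3′ on the minus strand for both genes, at chr19:10738975-10739224 for Cd5 and chr5:88527898-88528147 for Jchain.
Cd5: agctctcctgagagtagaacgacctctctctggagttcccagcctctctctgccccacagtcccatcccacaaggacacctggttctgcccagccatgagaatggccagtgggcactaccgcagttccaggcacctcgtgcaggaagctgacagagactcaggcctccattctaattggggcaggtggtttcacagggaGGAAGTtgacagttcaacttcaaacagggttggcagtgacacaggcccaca
Jchain: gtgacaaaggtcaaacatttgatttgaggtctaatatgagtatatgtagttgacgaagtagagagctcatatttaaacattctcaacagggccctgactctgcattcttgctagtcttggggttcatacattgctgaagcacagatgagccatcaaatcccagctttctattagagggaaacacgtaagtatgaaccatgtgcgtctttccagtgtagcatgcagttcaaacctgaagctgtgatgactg
Capitals mark the one match among 5 motifs searched on both strands. It is the ETS core GGAAGT in the Cd5 window, which 19.7% of 32851 such windows hold. The octamer ATGCAAAT (1.6% of windows), the EGR motif GCGNGGGCG (4.7%), the AP-1 motif TGANTCA (6.75%) and the E-box CACGTG (6.02%) had no match in either window. A match is a run of letters and not a measured site.

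The Cd5-high lymphomas held Cd5 at 10.57 (lymphoma 5043), 10.46 (5766), 10.30 (2949), 10.03 (6054) and 9.81 (7050), and the Cd5-low ones between 3.99 and 7.19 with a median of 5.40. The lowest level among the Cd5-high was thus the 9.81 of lymphoma 7050, and the highest among the Cd5-low the 7.19 of lymphoma 5560. The Cd5-low lymphomas spread more widely (SD 1.24, n = 9) than the Cd5-high ones (SD 0.31, n = 5). These levels chose the groups and are given without a test. The ADR arrays were not used for the choice. On them the 5 lymphomas stood between 9.96 and 10.37 and the other 9 between 3.74 and 7.86, a difference of 4.82 ± 0.50 (SE, limma adjusted p = 0.000306). The groups did not overlap on the ADR arrays, which come from the same tumours.

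**Figure D1:**
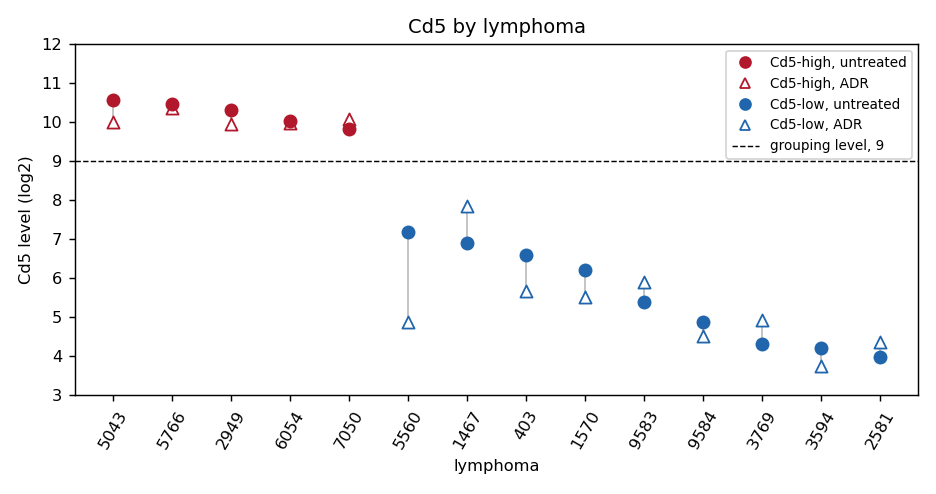
Cd5 level (log2, vertical axis) in each of the 14 lymphomas (horizontal axis), on the untreated (filled circles) and ADR arrays (open triangles), with the grouping level of 9 as a dashed line. All 5 Cd5-high lymphomas lie between 9.81 and 10.57 untreated, and no lymphoma lies between 7.86 and 9.81 on either array.

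T cells also carry Cd5, so their markers were read first. Of 9 T cell markers measured, 8 were under a log2 level of 6 on all 14 untreated arrays, among them Cd3e, a signalling chain of the T cell receptor, which stood at 5.43 to 5.77 in Cd5-high and 5.44 to 5.98 in Cd5-low lymphomas. The ninth, the adaptor Lat, reached 6.12. The B cell antigen receptor chain gene Cd79a lay between 9.96 and 11.86, and Cd79b between 10.62 and 11.91, on every array. The other B cell markers were lower or more variable. Ms4a1 (CD20) stood at 5.46 to 7.86 in Cd5-high and 6.28 to 10.6 in Cd5-low lymphomas, Blk at 7.04 to 10.59 and 4.51 to 8.16, and Pax5, like Cd3e, was under 6 on all 14 arrays.

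Other measures of the arrays moved with the groups to differing degrees. The 3′ minus 5′ signal of the actin control probe sets, a measure of how far labelled RNA reached from the 3′ end, was 0.53 to 0.76 in the Cd5-high and 0.18 to 0.43 in the Cd5-low lymphomas, with no overlap (exact permutation p = 5e-04, two-sided, the smallest that 2002 splits can give). The same signal of Gapdh was -0.02 to 0.07 over both groups. Xist, the RNA of the inactive X chromosome, was high (at least 10.9) in 5 of 5 Cd5-high and 4 of 9 Cd5-low lymphomas. Of the Xist-low lymphomas, 5560 (Xist 4.4) was also low in the Y-linked genes Eif2s3y (3.03) and Kdm5d (2.47). The Cd5-high lymphomas held these at 2.91 to 5.47 and 2.46 to 5.21. The other Xist-low lymphomas held Eif2s3y at 4.74 to 9.19 and Kdm5d at 4.64 to 7.17. At Eif2s3y the Xist-high lymphoma 5043 (5.47) stood above the Xist-low 9584 (4.74), with its Kdm5d at 3.35. At Kdm5d the Xist-high 7050 (5.21) stood above the Xist-low 3594 (4.64), with its Eif2s3y at 2.94. Xist thus does not settle the sex for 5560, 5043 or 7050. Of the 11 lymphomas that the labels tie to an earlier data set, 4 were Cd5-high and 7 Cd5-low. The macrophage and monocyte list, with genes such as Csf1r and Lyz2, averaged 5.49 to 7.82 in Cd5-high and 5.27 to 8.68 in Cd5-low lymphomas, and the feeder fibroblast list 4.69 to 5.83 and 4.85 to 5.35. In bulk RNA, fewer cells of a type and less RNA per cell cannot be told apart. Actin signal and Cd5 group cannot be told apart in these arrays. The part of sex was tested only by the fits given with the counts, which read sex from Xist alone.

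**Figure D2:**
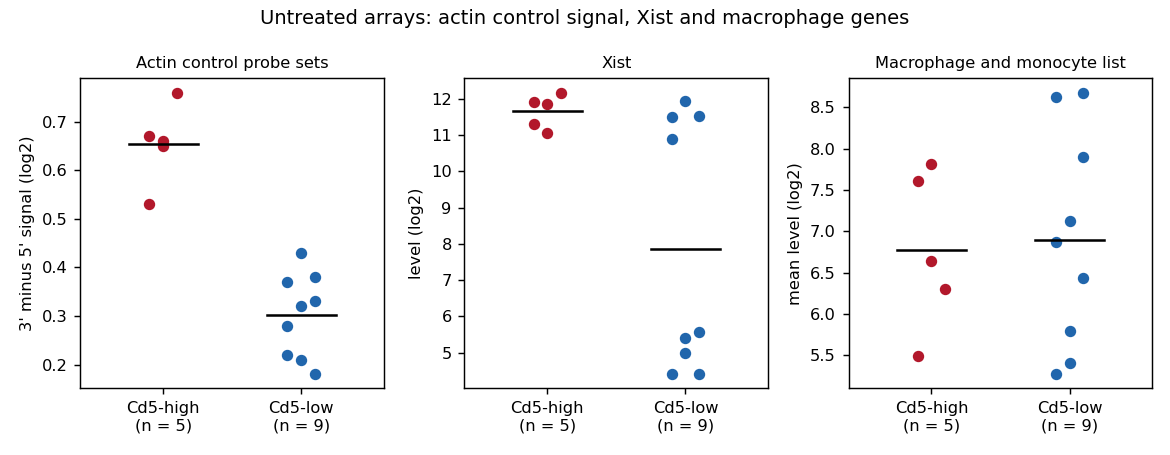
The 3 measures of the untreated arrays in the Cd5-high (red, n = 5) and Cd5-low lymphomas (blue, n = 9): the 3′ minus 5′ signal of actin control probe sets, the Xist level and the mean of the macrophage and monocyte list, all log2, with bars at the means. The actin signal does not overlap between the groups (0.53 to 0.76 against 0.18 to 0.43), Xist is low in 5 Cd5-low lymphomas only, and the macrophage list overlaps.

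Of 18192 genes tested besides Cd5, 644 (3.54%) were higher and 630 (3.46%) lower in the Cd5-high lymphomas at a limma adjusted p under 0.05, and 231 and 169 of these differed at least 2-fold. At 198 of the higher and 196 of the lower genes the 2 groups did not overlap, and 2.28% of all genes showed no overlap. The groups were drawn from a measured gene, so the counts describe how much of the array varies with Cd5 in these tumours. In those 11 lymphomas of the earlier set, 289 genes were higher and 299 lower. The other 3 lymphomas, 1 Cd5-high and 2 Cd5-low, were too few for a fit of their own. With sex by Xist as a covariate 252 were higher and 191 lower. Among the 9 lymphomas with high Xist, a set chosen after seeing the data, 117 were higher and 83 lower. All Cd5-high lymphomas had high Xist, so these 2 fits give the same differences and are not separate checks. With the actin signal as a covariate, which does not overlap between the groups, 3 were higher and 0 lower (4093 genes had an unadjusted p under 0.05 without it). The 3 were Plod2, Sash1 and Pdcd1. The SE grew in that fit, and lost calls were of differing kinds. Rgs13 went from 5.55 ± 0.84 to 5.16 ± 2.05 and Jchain from -5.35 ± 1.24 to -6.64 ± 3.02. Acoxl shrank from 3.59 ± 0.51 to 0.75 ± 0.91, and Cpn1 from -3.03 ± 0.85 to -0.37 ± 1.93. Leaving out single lymphomas changed the counts too, to 306 higher and 266 lower without 2949, 290 and 304 without 5766, and 368 and 333 without 6054. Without 7050 they were 988 and 926, and without the Cd5-low lymphoma 1467 they were 926 and 981.

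Pdcd1, the inhibitory receptor PD-1 known from activated lymphocytes, split the groups cleanly. It stood at 6.63 (5043), 7.6 (5766), 6.13 (2949), 6.75 (6054) and 7.31 (7050) in the Cd5-high lymphomas, and at 3.14 to 3.70 (median 3.52) in the Cd5-low ones. The difference was 3.39 ± 0.19 (adjusted p = 1.53e-07). Sash1, which encodes a scaffold protein, ranged from 8.68 to 9.5 against 3.56 to 4.91, a difference of 4.97 ± 0.19 (adjusted p = 1.94e-09). Its second probe set differed by 0.01, and the mean of both by 2.49 (adjusted p = 1.24e-08). Plod2, a lysyl hydroxylase that modifies collagen, ranged from 8.57 to 10.25 against 3.38 to 4.64 and differed by 5.52 ± 0.27 (adjusted p = 3.5e-08). For these 3 genes every Cd5-high lymphoma stood above every Cd5-low one, and the call held under each alternative tried.

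The largest positive difference was that of Rgs13, a regulator of G-protein signalling known from germinal centre B cells. Its level was 10.64 (5043), 10.08 (5766), 10.33 (2949), 8.79 (6054) and 5.47 (7050), against 2.22 to 5.86 (median 3.19) in the Cd5-low lymphomas, a difference of 5.55 ± 0.84 (adjusted p = 0.00237). Lymphoma 7050 thus lay inside the range of the Cd5-low group. Cd28, a costimulatory receptor of T cells that is also found on plasma cells, was at 8.54 (5043), 9.66 (5766), 8.83 (2949), 9.77 (6054) and 6.29 (7050), against 2.97 to 7.68 (median 3.55), and differed by 4.41 ± 0.77 (adjusted p = 0.00465). Again 7050 was the lowest of its group, and the Cd5-low lymphoma 5560 reached 7.68. The others of the 12 largest were the cilium gene Cfap69 (3.95), the transcription factor gene Egr1 (3.93), the serine protease gene Prss12 (3.81), the sodium channel gene Scn8a (3.74), the ERK phosphatase gene Dusp6 (3.72), Phlda1 (3.64), Acoxl (3.59) and Capsl (3.57). The adjusted p of these 8 lay between 2.31e-05 for Prss12 and 0.0125 for Capsl. Of them, the 2 groups overlapped at Egr1 and Capsl.

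Jchain had the largest negative difference of all called genes. The Cd5-high lymphomas stood at 4.16 (5043), 4.34 (5766), 4.68 (2949), 4.72 (6054) and 3.40 (7050), all low on the array. The Cd5-low lymphomas spread from 5.67 through a median of 9.22 to 13.42, so they were unlike one another, and the groups did not overlap. The difference was -5.35 ± 1.24 (adjusted p = 0.0195). No fold is given for Jchain, Pdcd1, Sash1 or Plod2, since the lower group of each lies about or below the array medians of 4.71 to 4.80. Other named genes also had a lower-group mean below these medians. Among them were Rgs13 (3.51), Cd28 (4.21), Cfap69 (3.71), Scn8a (4.08), Capsl (3.62), Selenbp1 (4.50) and Fgl2 (3.52). The filter on low values kept 71 of the 78 named genes called, without Rgs13, Scn8a and Capsl. Without lymphoma 2949 the Jchain difference was -5.46 at an adjusted p of 0.0505, and without 5766 it was -5.37 at 0.0537, so the call depended on these tumours and the size did not. With sex by Xist as a covariate it was -4.59 ± 1.5 (adjusted p = 0.126).

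Selenbp1, a selenium-binding protein, stood at 4.09 (5043), 4.75 (5766), 4.06 (2949), 3.68 (6054) and 5.94 (7050) against 7.16 to 10.11 (median 8.25), a difference of -3.91 ± 0.51 (adjusted p = 0.000907). No Cd5-high lymphoma reached the level of a Cd5-low one. Syce2, a protein of the synaptonemal complex, ranged from 4.36 to 7.68 against 8.16 to 9.48 and differed by -3.47 ± 0.45 (adjusted p = 0.000945). Fgl2, a fibrinogen-like protein, ranged from 2.99 to 4.12 against 5.39 to 8.63 and differed by -2.95 ± 0.41 (adjusted p = 0.00129). Neither gene overlapped between the groups. The other 8 of the 12 largest negative differences were those of the extracellular glycoprotein gene Reln (-3.63), the poly(A) polymerase gene Tent5c (-3.36), 2210016F16Rik (-3.28), Atrnl1 (-3.14), the acid phosphatase gene Acp5 (-3.11), the lysosomal hexosaminidase gene Hexa (-3.03), the carboxypeptidase gene Cpn1 (-3.03) and the chemokine gene Ccl5 (-2.93). All 8 overlapped between the groups, and a second probe set of 2210016F16Rik had the opposite sign. The calls of Reln and Cpn1 were lost without any one of 12 of the 14 lymphomas, that of Acp5 without any one of 6, and those of Hexa and Ccl5 without any one of 3, with 2949 among them for each gene (adjusted p up to 0.11).

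**Figure D3:**
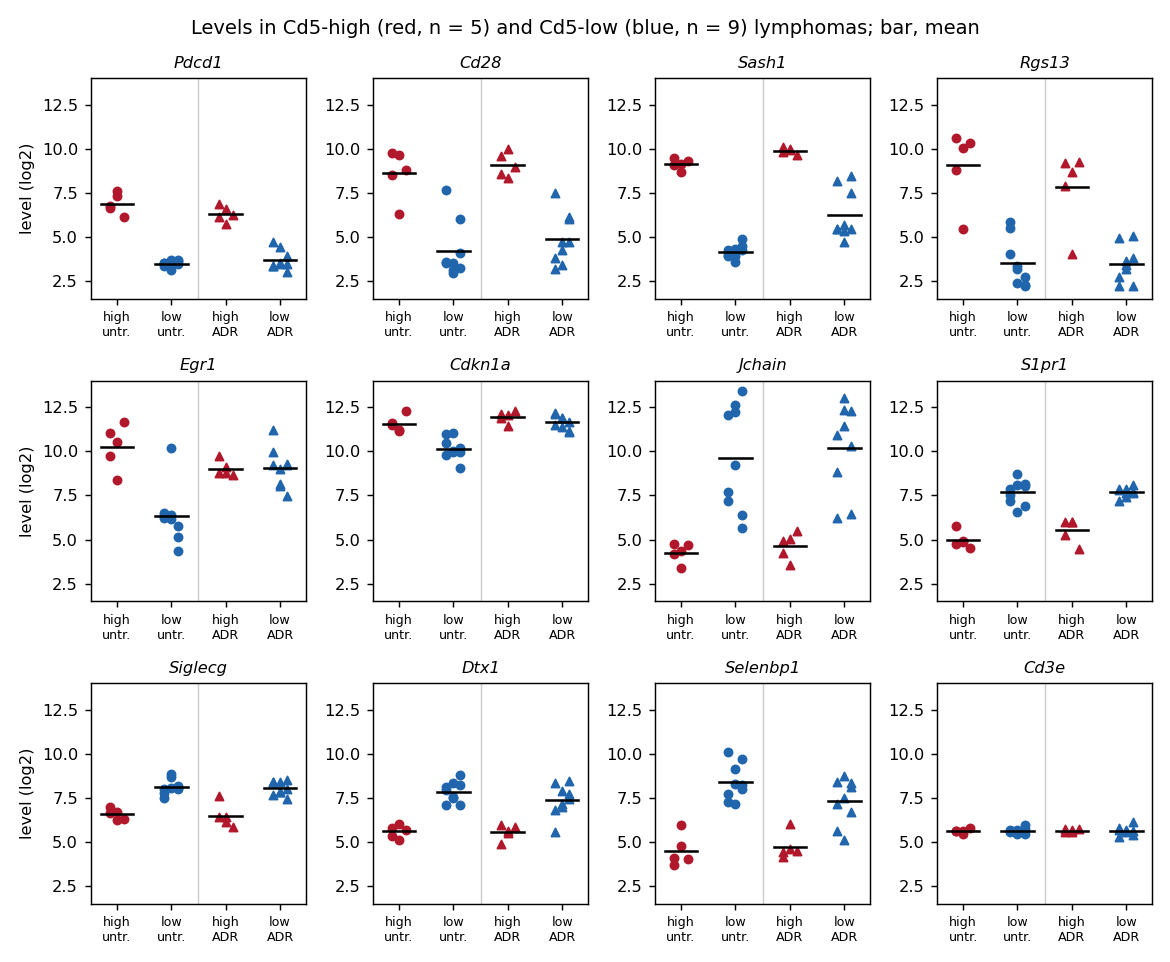
Levels (log2, vertical axis) of 12 genes in the Cd5-high (red, n = 5) and Cd5-low lymphomas (blue, n = 9), on untreated (circles) and ADR arrays (triangles), with bars at the means. Pdcd1 and Sash1 are high in all 5 Cd5-high lymphomas, Jchain is spread from 5.67 to 13.42 in the untreated Cd5-low group, Egr1 separates the means by 3.93 on untreated and by -0.07 on ADR arrays, and Cd3e is near 5.6 throughout.

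The gene lists are described by how many of their members were called, and the background is 3.54% of genes higher and 3.46% lower. The median difference over all genes was -0.02. For the counts of members at an unadjusted limma p under 0.05, the background is 4093 of 18192 genes. Among genes of B cell identity, 2 of 14 measured were higher and 2 lower (median -0.02). The early B cell factor gene Ebf1 (1.32 ± 0.29) and the kinase gene Blk (2.54 ± 0.62) were higher, and the transcription factor gene Spib (-1.53 ± 0.25) and Cd79b (-0.62 ± 0.15) lower. Blk and Cd79b lost their calls without any one of 3 Cd5-high lymphomas (adjusted p up to 0.0773 and 0.0762), and Ebf1 without 5766 (0.0555). With lymphoma as a replicate block over both sets of arrays, Spib (adjusted p = 0.0642) and Cd79b (0.12) lost theirs. The master regulator gene Pax5 stood at 5.57 and 5.60 on average, with no call. Of 23 B-lineage transcription factor genes, 3 were higher and 1 lower (median 0.17). The octamer-binding factor gene Pou2f2 (1.13 ± 0.15) and the E-protein gene Tcf4 (0.93 ± 0.11) were higher without overlap, and Ebf1 and Spib are also on this list.

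Apart from Cd5, the genes associated with B-1 cells were called in both directions. Of 18 measured, 2 were higher and 2 lower, and the median was -0.27. The cytokine gene Il10, made by B-1 and regulatory B cells, was at 7.59 to 8.54 against 3.87 to 7.71 (2.45 ± 0.57, adjusted p = 0.0187), and its call was lost without 5766 or 6054 (adjusted p up to 0.0593). The scramblase gene Plscr1 was at 6.82 to 8.74 against 3.19 to 6.31 (2.61 ± 0.54, adjusted p = 0.0114). Siglecg, an inhibitory receptor known to restrain B-1 cells, was lower. Its levels were 6.96 (5043), 6.25 (5766), 6.28 (2949), 6.64 (6054) and 6.68 (7050), against 7.47 to 8.84 (median 8.06) in the Cd5-low lymphomas, a difference of -1.56 ± 0.20 (adjusted p = 0.000907). The transcription factor gene Arid3a was lower (-0.66 ± 0.14), with an adjusted p of 0.0627 under the replicate block. The genes used as B-1 markers besides Cd5, Spn (-0.32 ± 0.33), Itgam (-0.35 ± 0.67), Zbtb32 (-0.32 ± 0.32) and Bhlhe41 (-0.63 ± 0.20), had no call, at adjusted p from 0.0751 to 0.802. Itgam is also a macrophage gene. Bhlhe41 was dim, at 4.63 to 5.37 against 4.91 to 6.27, with an unadjusted limma p of 0.0072.

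Genes of follicular and marginal zone B cells, the mature B cells of lymphoid organs, were called in 1 direction only. Of 15 measured, 0 were higher and 5 lower (8 had an unadjusted limma p under 0.05 in either direction), with a median of -0.61. S1pr1, the receptor by which lymphocytes leave lymphoid tissue, stood at 5.75 (5043), 4.91 (5766), 4.52 (2949), 4.74 (6054) and 4.84 (7050) against 6.59 to 8.74 (median 7.88), a difference of -2.73 ± 0.32 (adjusted p = 0.000547). Dtx1, a Notch-induced ubiquitin ligase, was at 5.13 to 6.05 against 7.08 to 8.79 (-2.25 ± 0.27, adjusted p = 0.000584). Neither gene overlapped between the groups. Dtx1 was -0.65 without a call when all its probe sets were averaged. The transcription factor gene Klf2 (-1.47 ± 0.28), Notch2 (-0.61 ± 0.13) and Ms4a4c (-1.56 ± 0.38) were lower with overlap, and the call of Ms4a4c was lost without any one of 2949, 5043, 5766 or 6054 (adjusted p up to 0.0741). The homing receptor genes Ccr7 (-1.50 ± 0.46, adjusted p = 0.064) and Cxcr5 (-1.70 ± 0.59, adjusted p = 0.0976) had no call. The complement receptor gene Cr2 and the IgE receptor gene Fcer2a, marginal zone and follicular markers, were near the low end in most tumours, with means of 4.56 and 3.83 in Cd5-high and 3.88 and 4.76 in Cd5-low lymphomas.

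Of 17 plasma cell genes, 1 was higher and 4 lower (median -0.32). The 4 were Jchain and 3 genes of protein folding and quality control in the endoplasmic reticulum, Edem1 (-1.22 ± 0.20), Txndc5 (-1.24 ± 0.24) and Fkbp11 (-1.72 ± 0.44), and the 1 was Cd28. Edem1 had a second probe set of opposite sign, and Fkbp11 lost its call without any one of 6 lymphomas, 2949 among them (adjusted p up to 0.106). The regulators of the plasma cell state did not follow Jchain past the threshold. Prdm1 differed by -0.32 ± 0.78, Xbp1 by -0.34 ± 0.28, Irf4 by -0.84 ± 0.35 and the surface marker gene Sdc1 by 0.16 ± 0.30, at adjusted p from 0.174 to 0.857. At the early end of the lineage, 1 of 16 pre-B cell genes was higher, the transcription factor gene Lef1 (1.99 ± 0.46, adjusted p = 0.0185), which lost its call without 5043 or 5766 (adjusted p up to 0.0608). The list's median was 0.68. The surrogate light chain gene Igll1 was at 6.58 to 9.71 in Cd5-high and 5.72 to 9.71 in Cd5-low lymphomas. Its difference was 1.34 ± 0.62 without a call (adjusted p = 0.221). Without lymphoma 5560 the highest Cd5-low level of Igll1 was 6.74, still above the lowest Cd5-high level of 6.58. Vpreb1 (1.64 ± 0.86), Rag1 (1.09 ± 0.85) and Il7r (1.31 ± 1.06) had no call. Of 11 germinal centre genes, 1 was higher, Rgs13, and the repressor gene Bcl6 had a difference of 0.91 ± 0.32 without a call (adjusted p = 0.107).

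Genes that respond to the antigen receptor were higher in part. Of 19 measured, 4 were higher (Egr1, Egr2, Cd69 and Tnf) and 1 lower (Nfkbid), with a median of 0.23. Nfkbid lost its call without 2949 or 5766 (adjusted p up to 0.0608), and Tnf (0.89 ± 0.24) without any one of 8 lymphomas, both of these among them (0.106). Egr1, an immediate early transcription factor gene, was at 11.04 (5043), 10.52 (5766), 11.65 (2949), 9.75 (6054) and 8.38 (7050), against 4.33 to 10.21 (median 6.24). Of the Cd5-low lymphomas only 1467, at 10.21, stood above 6.52. The difference was 3.93 ± 0.76 (adjusted p = 0.00821), and with sex by Xist as a covariate it was 3.49 ± 0.92 (adjusted p = 0.0618). Its relative Egr2 was at 6.90 to 8.02 against 3.46 to 7.51 (3.15 ± 0.52, adjusted p = 0.0035), with 1467 again the highest Cd5-low tumour. Cd69, an early activation antigen, was at 10.18 to 11.06 against 5.85 to 10.14, without overlap (2.59 ± 0.57, adjusted p = 0.0152). With sex by Xist as a covariate it differed by 1.8 (adjusted p = 0.132), and in the earlier set by 2.35 (0.0758). Nr4a1, another gene induced by the receptor, differed by -0.37 with no call (adjusted p = 0.765). Dusp6 was at 10.67 (5043), 10.55 (5766), 10.98 (2949), 10.40 (6054) and 9.55 (7050) against 4.89 to 9.52 (median 6.6). In the fit with sex by Xist it differed by 2.82 ± 0.79 (adjusted p = 0.0753).

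Of 20 genes of B cell receptor signalling, 1 was higher (Blk) and 2 lower, Cd79b and the protein kinase C gene Prkcb (-1.30 ± 0.28), against a background of 3.54% and 3.46%. Prkcb had an adjusted p of 0.118 under the replicate block. Of 15 inhibitory receptor and phosphatase genes measured besides Cd5, 0 were higher and 2 lower (4 had an unadjusted limma p under 0.05), Siglecg and the ubiquitin ligase gene Cblb (-0.58 ± 0.16). The call of Cblb was lost without any one of 9 lymphomas, 2949 among them (adjusted p up to 0.12), and under the replicate block (0.122). In the NF-kB list of 17 genes, Nfkbiz (1.15 ± 0.31) and Cflar (1.01 ± 0.27) were higher and Birc3 (-1.02 ± 0.17) and Ccl5 lower, and of these only Birc3 kept its call without each lymphoma in turn. Birc3 differed by -0.46 with averaged probe sets (adjusted p = 0.0816). Among 14 costimulation and checkpoint genes, Pdcd1 and the ICOS ligand gene Icosl (0.74 ± 0.16) were higher, the latter at an adjusted p of 0.0527 without 2949 and 0.138 under the replicate block. Cd86, a ligand of CD28, was lower, at 5.61 (5043), 6.05 (5766), 5.21 (2949), 6.56 (6054) and 6.53 (7050) against 7.32 to 10.31 (median 8.40), a difference of -2.49 ± 0.39 without overlap (adjusted p = 0.00271). The T cell list, with 17 members measured besides Cd5, had 1 member higher, Cd28, and 1 lower, the adhesion receptor gene Cd2 (-2.49 ± 0.57, adjusted p = 0.0179, and 0.0617 without 2949). Cd6, a relative of Cd5, stood at 4.77 to 5.28 and 4.70 to 7.71 and had no call (-0.67 ± 0.53).

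Genes of the p53 pathway and CDK inhibitors were called in 1 direction only, 5 of 18 higher and 0 lower (7 had an unadjusted limma p under 0.05 in either direction), with a median of 0.28. Cdkn1a, the CDK inhibitor p21, was at 11.5 (5043), 11.18 (5766), 12.28 (2949), 11.60 (6054) and 11.19 (7050) against 9.04 to 11.03 (median 10.00), without overlap (1.39 ± 0.29, adjusted p = 0.0118), and in the earlier set it differed by 1.35 (0.0669). Phlda3, an inhibitor of Akt, was at 8.65 to 9.79 against 6.76 to 8.23 (1.4 ± 0.24, adjusted p = 0.00367), again without overlap. Zmat3 (1.28 ± 0.29), the p53 ubiquitin ligase gene Mdm2 (0.84 ± 0.22) and Ccng1 (0.83 ± 0.23) were higher with overlap, and all 3 lost their calls without single lymphomas (adjusted p up to 0.0654, 0.0952 and 0.134), 2949 among them for each. Cdkn2a, the locus of p16 and p19Arf, had a mean of 3.64 and 4.36 and no call. Of 11 cyclin and CDK genes Cdk6 was higher (1.47 ± 0.34, adjusted p = 0.0196, and up to 0.061 without 1 of 5043, 5766 or 6054). Of 14 BCL2 family genes Bcl2l2 was higher (1.61 ± 0.37) and Bik lower (-0.85 ± 0.24), and both lost their calls without 2949 or 5766, among others for Bik (adjusted p up to 0.055 and 0.114). Bcl2, which every tumour also carries as a retrovirus, differed by 0.58 ± 0.22, and Myc, the transgene's product, by -0.53 ± 0.22, without a call (adjusted p = 0.122 and 0.162). The other probe sets of Bcl2, at mean levels of 3.39 to 6.88, differed by 0.55 to 0.99. Whether the probe sets of either gene read endogenous or introduced copies was not examined.

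Among the remaining lists, the Wnt list had 3 of 13 genes higher and 0 lower (7 had an unadjusted limma p under 0.05 in either direction), Lef1, the ubiquitin ligase gene Rnf43 (1.46 ± 0.19) and Wnt10a (0.73 ± 0.13), and the Notch list 2 of 13 lower, Dtx1 and Notch2. Rnf43 was dim, at 4.89 to 5.89 against 3.43 to 4.49, and so was Wnt10a, at 4.80 to 5.60 against 4.36 to 4.99. The filter on low values removed both. In all, 7 of the 13 Wnt members were under 6 on all 14 untreated arrays. In the MYC network Mycn was higher (0.72 ± 0.15) and Max lower (-1.06 ± 0.28), of 20 measured. The call of Mycn rests on 1 probe set, with a mean level of 13.2. The other probe sets of Mycn, at mean levels of 4.59 and 3.89, differed by 0.18 and -0.05. With averaged probe sets Mycn differed by 0.28 (limma adjusted p = 0.0134). Of 20 DNA replication genes Mcm6 was higher (0.60 ± 0.13), and of 13 NFAT and calcium genes the calcium sensor gene Stim1 (0.54 ± 0.13). Of 17 homing genes 2 were lower, S1pr1 and the integrin gene Itgb7 (-1.42 ± 0.34), and of 13 toll-like receptor genes 2, Tlr7 (-1.29 ± 0.32) and Unc93b1 (-0.62 ± 0.17). Of 19 feeder fibroblast genes 1 was lower, Fstl1 (-2.82 ± 0.71), and none of the collagen genes was called. Of these, Lef1, Max, Mcm6, Stim1, Itgb7, Tlr7, Unc93b1 and Fstl1 lost their calls without at least 1 lymphoma, 5766 among them for each. Max and Unc93b1 did so without any one of 10 lymphomas (adjusted p up to 0.112 and 0.129). Tlr7 and Mcm6 lost theirs under the replicate block too (adjusted p = 0.092 and 0.0529). The other 10 lists had 0 calls by limma among 121 measured members. Of these members 8 had an unadjusted limma p under 0.05, against 4093 of all 18192 genes tested. The 10 lists are those of NK, dendritic, granulocytic, erythroid and macrophage cells, sex-linked genes, MHC class II, cytokine receptors, the interferon response and G2/M.

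**Figure D4:**
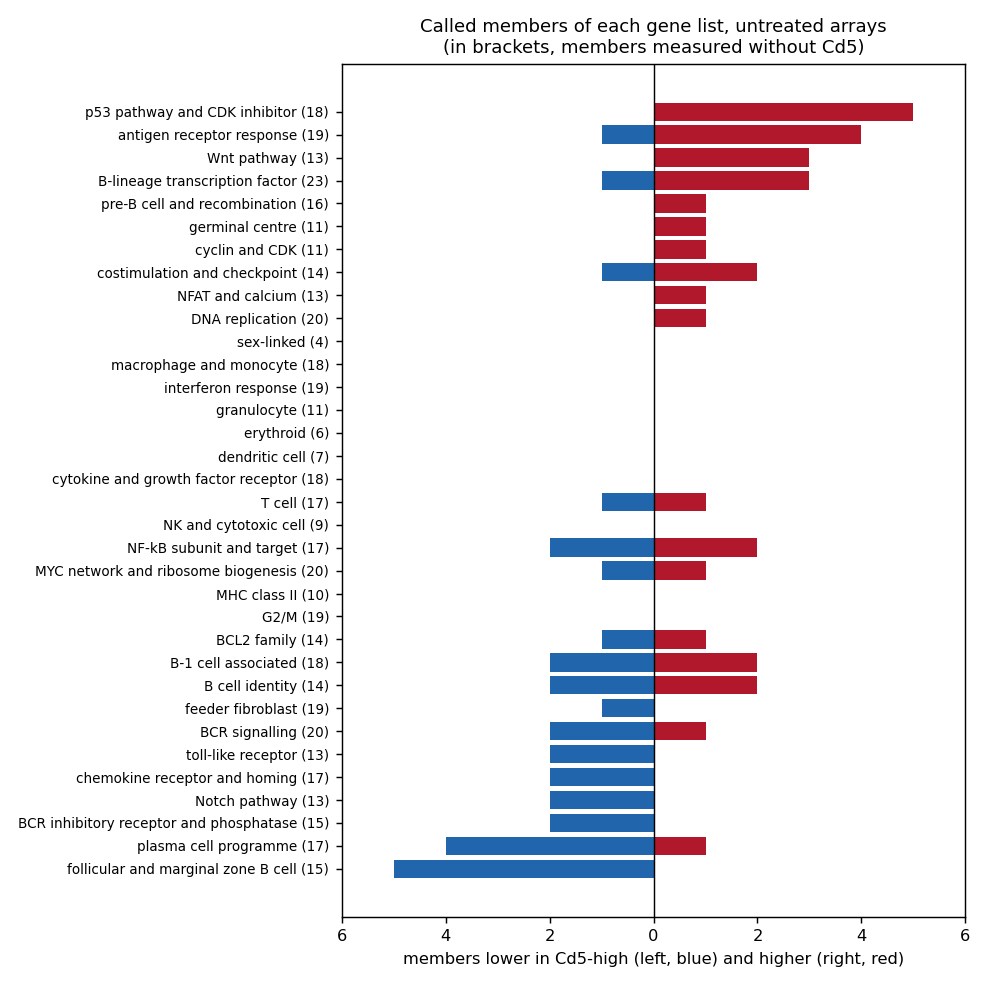
Number of members called lower (blue, left) and higher (red, right) in the untreated Cd5-high lymphomas in each of 34 gene lists (vertical axis), with the number measured besides Cd5 in brackets. The p53 and CDK inhibitor list has 5 of 18 members higher and the follicular and marginal zone list 5 of 15 lower.

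The same lymphomas were compared on their ADR arrays, whose values the grouping did not use. At an adjusted p under 0.05, 270 genes (1.48% of 18193) were higher and 246 (1.35%) lower in the Cd5-high lymphomas. Of the genes higher on untreated arrays 143 were also higher on ADR arrays, which is 22.2% of the untreated and 53.2% of the ADR calls other than Cd5, and 135 were lower on both, 21.4% and 54.9%. No gene had opposite calls. Tumours are shared between the 2 sets of arrays, so these are repeat measurements and not further tumours. The ADR counts were 101 higher and 79 lower without 2949, 75 and 80 without 5766, and 81 and 69 without 6054, and without 7050 the lower count was 159. With the ADR actin signal as a covariate they were 152 and 174, and among the lymphomas with high Xist 50 and 65, both chosen after seeing the data. The feeder fibroblast list averaged 5.47 to 8.56 in Cd5-high and 5.08 to 10.12 in Cd5-low lymphomas on these arrays, and the fit that included it called 434 higher and 526 lower. In the lymphomas of the earlier set they were 169 and 142.

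Several receptor genes were called on the ADR arrays as well. Pdcd1 was at 5.74 to 6.90 against 3.00 to 4.70 (2.63 ± 0.27, adjusted p = 0.000294), Cd28 at 8.37 to 10.02 against 3.20 to 7.5 (4.25 ± 0.63, adjusted p = 0.00359), and S1pr1 at 4.44 to 6.02 against 7.21 to 8.08 (-2.15 ± 0.24, adjusted p = 0.000439). None of the 3 overlapped. Jchain was at 4.23 (5043), 5.01 (5766), 5.46 (2949), 4.93 (6054) and 3.54 (7050) against 6.23 to 13.02 (median 10.94), again without overlap (-5.57 ± 1.07, adjusted p = 0.0156). Siglecg (-1.56 ± 0.26, adjusted p = 0.0071), Dtx1 (-1.82 ± 0.39, adjusted p = 0.0254) and Cdk6 (1.54 ± 0.26, adjusted p = 0.00763) were called as well, with overlap in the first 2. Cd69 had a difference of 2.58 ± 0.66 that did not pass the threshold (adjusted p = 0.0519).

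Other differences were not called on the ADR arrays. Egr1 was at 9.73 (5043), 8.77 (5766), 8.67 (2949), 8.78 (6054) and 9.09 (7050) after ADR against 7.45 to 11.24 (median 9.22) in the Cd5-low lymphomas, a difference of -0.07 ± 0.49 (adjusted p = 0.961). The Cd5-low mean had been 6.34 untreated. Egr2 (0.75 ± 0.44), Phlda1 (0.85 ± 0.54) and Dusp6 (1.38 ± 0.63) were without a call, at adjusted p from 0.286 to 0.456. None of the 18 p53 and CDK inhibitor genes was called on the ADR arrays by limma. Of all genes 1.48% were called higher and 1.35% lower there, so no call among 18 is near that share. On those arrays Cdkn1a stood at 11.42 to 12.31 against 11.10 to 12.20, and the list's median difference was -0.29. Whether the difference itself changed was tested on the change from untreated to ADR in each lymphoma, with the untreated values entering both. At an adjusted p under 0.05 the change differed between the groups for 6 of 18192 genes (1723 at an unadjusted p under 0.05), 2 with a more positive change in Cd5-high lymphomas and 4 with a more negative one. Phlda3 (-1.77 ± 0.26, adjusted p = 0.0289), the ephrin receptor gene Epha2 (-1.77 ± 0.26, 0.0289), Zfp365 (-2.79 ± 0.33, 0.00698) and Blk (-2.14 ± 0.34, 0.045) were the 4. Egr1 was not among them (-4 ± 0.96, adjusted p = 0.288), and neither was Cdkn1a (-1.08 ± 0.29, 0.333).

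**Figure D5:**
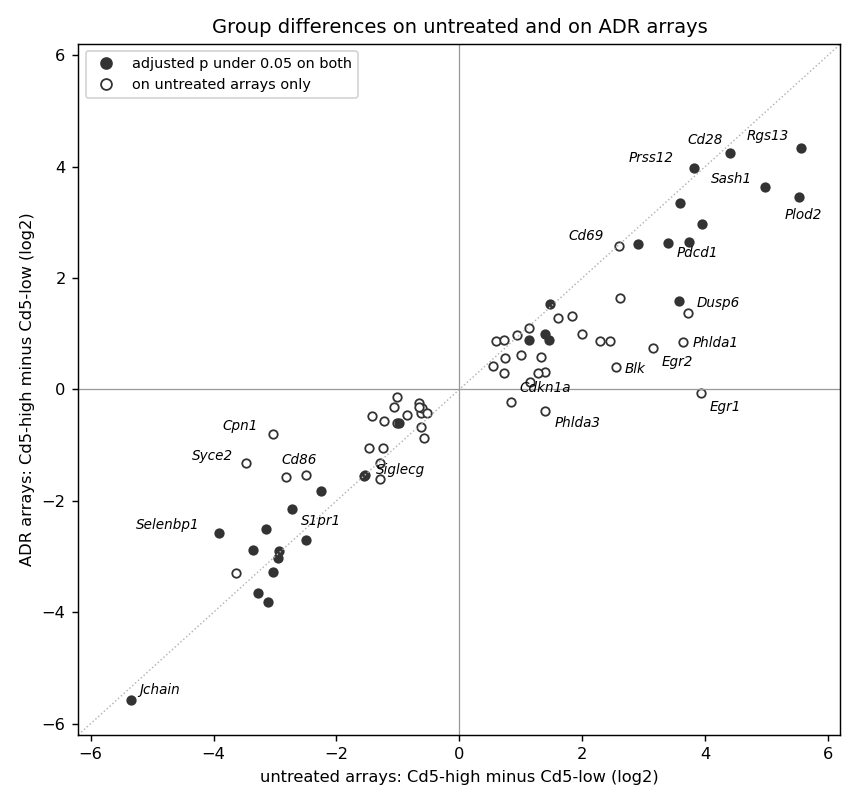
Difference between Cd5-high and Cd5-low lymphomas (log2) on untreated arrays (horizontal axis) and on ADR arrays (vertical axis) for the 78 named genes called untreated, filled where also called on ADR arrays. Jchain lies near the dotted line of equal differences at -5.35 and -5.57, while Egr1 lies at 3.93 and -0.07.

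The genes whose untreated levels followed Cd5 most closely over the 14 lymphomas were Dennd2c (r = 0.96), A430093F15Rik (0.95), Retreg1 (0.94), Abcd3 (0.94) and Spred2 (0.94), by Pearson correlation. The lowest were Selenbp1 (-0.93), Dhrsx (-0.93), S1pr1 (-0.93), Traf6 (-0.93) and Mbtps1 (-0.92). These values are descriptions over tumours that fall into 2 groups of Cd5 level, and the same arrays, with their actin signal, stand behind all points. Retreg1, a receptor for selective autophagy of the endoplasmic reticulum, was at 10.68 to 11.08 against 8.79 to 10.32, and the peroxisomal transporter gene Abcd3 at 9.28 to 9.79 against 7.95 to 8.97. The signalling adaptor gene Traf6 was at 5.73 to 6.21 against 6.56 to 7.38, and the site-1 protease gene Mbtps1 at 8.34 to 8.60 against 8.56 to 9.25. All but Mbtps1 of these 4 were without overlap between the groups. On the ADR arrays Retreg1 (0.99 ± 0.15) and Abcd3 (0.88 ± 0.17) had differences of the same sign as untreated, as did Traf6 (-0.61 ± 0.12) and Mbtps1 (-0.42 ± 0.13).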

How the data were processed

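The deposited values are log2 expression levels for 45101 probe sets on 28 arrays. Per the submitters' processing notes, the authors used RMA and Partek 6.5. A genome build is not given in the sources used here. By the platform annotation 34945 probe sets had 1 gene, 932 several, 9160 none, and 64 were controls. Each gene was read from its brightest single-gene probe set (18193 genes, 9010 with several probe sets). Groups were compared with limma 3.58.1 in R 4.3.3 (lmFit, eBayes, two-sided, Benjamini-Hochberg over all genes, threshold 0.05), leaving out Cd5 on untreated arrays. Single values used exact permutation over 2002 splits. The number of arrays limits the precision.

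The members, lists and named genes were chosen with earlier results of these data known. Named were the 12 largest called differences each way, up to 4 called members per list by smallest adjusted p, 26 genes in any case (1 is not reported here), and the 5 highest and 5 lowest correlations with Cd5. Of 505 list members, 473 were measured. Other genes named were chosen after their values were seen. Promoter windows come from RefSeq GRCm38.p6, where 78 of 101 named genes matched. The fit was tested on simulated data. Alternatives concerned the eBayes prior, probe sets, a filter on low values, normalization, covariates, the lymphomas included and a lymphoma block. No 2 arrays were identical (highest correlation 0.992). Plots used matplotlib 3.10.9 (Python 3.11.15).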

Additional observations from a re-analysis of the deposited data

Results flagged for a closer look

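Some single tumours stood apart from their own group by Dixon's gap test on untreated arrays, which chance passes in about 1 of 20 groups, and 2 groups were looked at for each named gene. No explanation was weighed.

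The Cd5-low lymphoma 1467 was high in Egr1 (10.21, next 6.52) and Egr2 (7.51, next 4.76), and low in 2210016F16Rik (7.36, next 8.51) and Atrnl1 (5.14, next 6.68). The Cd5-high lymphoma 7050 was the counterpart at those last genes, with 2210016F16Rik at 7.5 (next 5.29) and Atrnl1 at 6.30 (next 3.67). It was also high in Nfkbid (8.21, next 7.39) and low in Bcl2l2 (7.5, next 7.90). Lymphoma 5560 was high in both surrogate light chain genes, Vpreb1 (9.45, next 6.06) and Igll1 (9.71, next 6.74), and in Pou2f2 (8.08, next 7.53). Lymphoma 1570 stood above the other Cd5-low tumours in Plod2 (4.64, next 4.00), Icosl (5.50, next 4.96) and Cr2 (5.22, next 3.88). Its Plod2 level was still below its array median of 4.71.

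Lymphoma 403 was high in Cfap69 (5.51, next 3.95) and low in Tent5c (4.98, next 7.77). Lymphoma 5043 was high in Acoxl (10.25, next 9.64) and low in Wnt10a (4.80, next 5.45), and 5766 high in A430093F15Rik (8.13, next 7.61) and low in Traf6 (5.73, next 6.13). Edem1 was high in 9584 (10.38, next 9.59), Bcl2 high in 3769 (12.78, next 12.14), and Cdk6 low in 2949 (9.34, next 10.68).

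The change from untreated to ADR differed between the groups for 6 genes by limma on the per-lymphoma changes, n = 5 and 9. The difference of changes, Cd5-high minus Cd5-low, was -2.79 for Zfp365, -1.77 for Phlda3, -1.77 for Epha2, -2.14 for Blk, 1.25 for Lsp1 and 1.23 for D13Ertd608e. Zfp365 averaged 7 and 4.71 untreated and 6.85 and 7.34 after ADR. Lsp1, a leukocyte actin-binding protein, averaged 9.93 and 10.91 untreated and 10.77 and 10.49 after ADR.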

How the results depend on the processing

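Counts are given as higher and lower on untreated arrays (644 and 630) and on ADR arrays (270 and 246). Trend or robust eBayes, averaged probe sets, the filter on low values, quantile normalization, the earlier set, the macrophage, fibroblast and T cell lists as covariates, and the Cd5 level in place of the groups kept the untreated counts within 1.5 times. Those that did not gave 289 and 299 (earlier set only), 252 and 191 (sex by Xist), 3 and 0 (actin signal) and, chosen after seeing the data, 117 and 83 (high Xist only). Similar counts did not mean the same genes. Of the 644 and 630 genes, 489 and 486 were called again with the Cd5 level in place of the groups. With averaged probe sets 483 and 495 were called again, and with the filter on low values, which also removed genes, 486 and 538. Leaving out one lymphoma gave 290 to 988 and 266 to 981. On ADR arrays the counts were 169 and 142 (earlier set only), 434 and 526 (fibroblast list), 152 and 174 (actin signal, chosen after seeing the data) and 50 and 65 (high Xist only, likewise), and 75 to 283 and 69 to 299 without one lymphoma. With lymphoma as a random replicate block over 28 arrays (correlation 0.264) they were 704 and 703 untreated and 448 and 451 on ADR arrays, and 9 of 78 named calls were lost, those of Spib, Cd79b, Arid3a, Prkcb, Cblb, Icosl, Tlr7, Mcm6 and Mdm2 (adjusted p 0.05 to 0.138). Trend eBayes kept the ADR counts. The cause of these shifts was not tested, and the subsets also hold fewer tumours. Of 78 named genes called, 49 kept their call without each lymphoma in turn, and 42, 3 and 33 with sex by Xist, the actin signal and high Xist only. The fits with sex by Xist and with high Xist only give the same differences, since all Cd5-high lymphomas had high Xist. Among these 78, the only one that changed sign was Zmat3, at -0.11 (adjusted p = 0.99) with the actin signal. No detection calls were used here, so no bound was set for dim genes.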
